A study of Mus musculus with 4 samples.

Results

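The B cell identity transcription factors examined here are 10 named genes, *Pax5*, *Ebf1*, *Tcf3*, *Ikzf1*, *Ikzf3*, *Spi1*, *Spib*, *Foxo1*, *Pou2af1* and *Irf8*, out of 22367 protein-coding genes of the annotation. They were chosen by name and not by any measured value, though with earlier results of these data known. All 10 were found on mouse genome build mm9. *Spi1* stands in the annotation under its older symbol *Sfpi1*. To ask where the replication timing factor RIF1 was bound at these genes, each gene, the 1 kb on each side of every transcript 5′ end and the 200 kb on each side of the gene were searched for overlap with a list of 16332 RIF1-bound intervals.

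The intervals came from chromatin immunoprecipitation and sequencing (ChIP-seq) of primary splenic B cells of Rif1FH/FH mice, in which the endogenous RIF1 protein carries FLAG and HA epitopes at its N terminus. The cells were isolated with anti-CD43 beads, cultured with 5 µg/ml lipopolysaccharide (LPS) and 5 ng/ml interleukin 4 (IL-4), and taken after 72 h, and both genotypes received this treatment. There were 2 Rif1FH samples and 2 Rif1WT samples of untagged C57BL/6 (Rif1WT/WT) mice as the negative control, and the labels give no age or number of animals for either genotype. The list is 1 consensus of what the authors called in both Rif1FH replicates, with positions only, so that no value per sample, no read depth, no background in Rif1WT cells and no error between replicates can be given. All counts that follow are therefore descriptions of 1 list, with no test.

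Intervals under 50 kb numbered 16043, from 286 to 14827 bp, and are called peaks. Intervals of 50 kb or more numbered 289, from 90 to 4842 kb with a median of 576 kb, and are called wide intervals. The study names such regions RIF1-associated domains. The study kept as peaks only those outside such domains, and 0 of the 16043 peaks overlapped a wide interval. A gene inside a wide interval could thus have no peak, whatever the local binding.

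B cells arise in the bone marrow in steps that depend on a small network of transcription factors. PU.1 (encoded by *Spi1*) and Ikaros (*Ikzf1*) act in early lymphoid progenitors, E2A (*Tcf3*), EBF1 and FOXO1 switch on the B cell programme, and PAX5 commits cells to it by activating B cell genes and repressing those of other lineages. In mature cells, Aiolos (*Ikzf3*), Spi-B (*Spib*), IRF8 and the coactivator OCA-B (*Pou2af1*) take part in activation and the germinal centre response. RIF1 is known for setting the time at which parts of the genome replicate and for protecting DNA ends at breaks, including those of antibody class switching.

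No factor gene had both kinds of interval, and none that lay wholly inside a wide interval could have both. A wide interval lay over 6 of the 10, *Tcf3*, *Ikzf1*, *Ikzf3*, *Spib*, *Foxo1* and *Irf8*, against 22.6% of all protein-coding genes. At least 1 peak lay over the other 4, *Pax5*, *Ebf1*, *Spi1* and *Pou2af1*, against 35.9% of all protein-coding genes. In all, 10 of 10 had an interval of some kind, against 58.1% of all protein-coding genes. Counted with 200 kb on each side, a wide interval was again present at 6 of 10, against 28.7%, and a peak at 4 of 10, against 69.3%. At the 6, most or all of that stretch lay in a wide interval, so that this peak count was largely set beforehand. Of coding genes with no wide interval 45.8% had a peak over them, beside 4 of the 4 factor genes outside wide intervals. These shares are not matched for gene length. Only 1 of the 10 genes was under 20 kb, beside 12649 of the 22367 coding genes. With 10 genes chosen by name, the shares are set side by side as a description.

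A peak within 1 kb of a transcript 5′ end was listed at 3 genes, *Pax5*, *Spi1* and *Pou2af1*, against 33.9% of all protein-coding genes. This share was thus near the background. Among coding genes with no wide interval it was 43.4%, and of the 4 factor genes with no wide interval 3 had such a peak. *Ebf1* was the exception, with peaks on each side of its start but none at it. The 10 genes had 49 annotated 5′ ends, of which 9 had a peak within 1 kb, 32 lay in a wide interval and 8 had neither.

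**Figure D1:**
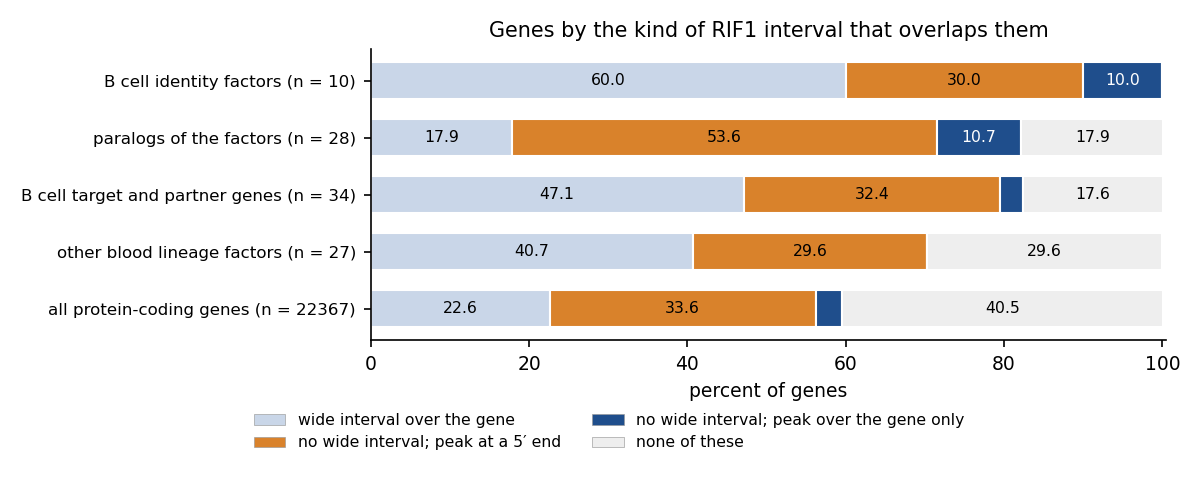
Share of genes (percent, horizontal axis) by the kind of RIF1 interval over them, for the 10 factor genes, 3 lists of related genes and all 22367 protein-coding genes, each gene counted once in the order of the legend. Wide intervals took 60.0% of the factor genes and 22.6% of all coding genes, and none of the factor genes fell in the last class.

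Sequences of 300 bases are shown from some of the peaks at the 4 genes outside wide intervals. The position of these peaks in or beside each gene is what the list shows of them. Among peaks not shown, the *Pax5* intron peaks from 44680332 and 44687706 held none of the letters named below. The *Ebf1* intron peaks from 44557666 and 44588947, also not shown, held some. Each sequence shown is the centre of its peak, lies outside annotated exons and is written 5′ to 3′ on the strand of the gene. Capitals mark letters searched for on both strands, which were the E-boxes CAGCTG (its own reverse complement) and CACCTG, bound by E proteins such as E2A, the EBF1 site (TCCC and GGGA with 2 bases between), the PU.1 type site GAGGAAGT, the Ikaros core TGGGAA, the octamer ATGCAAAT, the interferon response element (GAAA and GAAA with 2 bases between), the composite element for PU.1 with an IRF (GGAA and GAAA with 2 bases between), and the forkhead site GTAAACA. None of these contains another, though neighbouring matches may overlap, and a match does not show that a factor was bound.
Pax5 start peak, mm9 chr4:44725935-44726234, minus strand: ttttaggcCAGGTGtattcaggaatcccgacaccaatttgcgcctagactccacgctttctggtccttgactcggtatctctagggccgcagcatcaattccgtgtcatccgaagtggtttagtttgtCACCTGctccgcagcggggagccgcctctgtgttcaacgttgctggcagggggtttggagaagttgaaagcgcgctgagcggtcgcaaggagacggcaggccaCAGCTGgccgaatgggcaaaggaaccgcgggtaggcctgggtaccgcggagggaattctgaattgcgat
Pax5 intron peak, mm9 chr4:44683640-44683939, minus strand: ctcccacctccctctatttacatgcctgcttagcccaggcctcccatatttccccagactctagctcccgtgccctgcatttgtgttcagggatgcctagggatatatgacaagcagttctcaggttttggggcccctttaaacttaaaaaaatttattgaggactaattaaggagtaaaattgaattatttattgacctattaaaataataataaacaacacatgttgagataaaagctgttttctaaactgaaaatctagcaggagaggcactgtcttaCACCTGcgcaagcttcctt
Ebf1 upstream peak, mm9 chr11:44425817-44426116, plus strand: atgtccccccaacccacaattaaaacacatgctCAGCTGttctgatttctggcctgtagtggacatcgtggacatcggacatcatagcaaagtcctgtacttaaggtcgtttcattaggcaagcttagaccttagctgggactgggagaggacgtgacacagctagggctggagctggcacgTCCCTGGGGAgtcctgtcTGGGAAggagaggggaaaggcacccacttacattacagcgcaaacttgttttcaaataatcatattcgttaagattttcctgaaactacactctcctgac
Ebf1 intron peak, mm9 chr11:44706607-44706906, plus strand: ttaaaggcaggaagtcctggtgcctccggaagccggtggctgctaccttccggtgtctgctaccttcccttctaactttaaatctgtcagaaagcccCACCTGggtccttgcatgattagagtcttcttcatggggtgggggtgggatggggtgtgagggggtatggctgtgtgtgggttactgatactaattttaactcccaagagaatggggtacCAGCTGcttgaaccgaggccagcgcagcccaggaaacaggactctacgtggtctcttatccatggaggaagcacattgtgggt
Spi1 first peak, mm9 chr2:90923061-90923360, plus strand: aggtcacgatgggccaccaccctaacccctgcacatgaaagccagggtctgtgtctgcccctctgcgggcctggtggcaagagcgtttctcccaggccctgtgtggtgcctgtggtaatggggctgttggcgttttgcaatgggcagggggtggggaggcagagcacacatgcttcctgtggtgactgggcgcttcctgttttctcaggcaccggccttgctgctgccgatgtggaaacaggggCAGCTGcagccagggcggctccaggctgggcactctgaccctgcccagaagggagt
Pou2af1 start peak, mm9 chr9:51020647-51020946, plus strand: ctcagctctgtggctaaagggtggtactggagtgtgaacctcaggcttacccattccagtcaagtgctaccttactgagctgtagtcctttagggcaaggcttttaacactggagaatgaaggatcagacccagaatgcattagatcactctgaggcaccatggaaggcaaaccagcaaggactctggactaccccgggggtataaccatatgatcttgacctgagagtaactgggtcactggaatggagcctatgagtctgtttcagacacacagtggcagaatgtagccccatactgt

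*Pax5* (ENSMUSG00000014030.9, chromosome 4, 44544017 to 44724318, minus strand), the commitment factor, spans 180 kb and had 5 peaks over it. As many were found over 0.903% of all coding genes, and over 1.15% of those with no wide interval. These shares are not matched for gene length. At least 1 peak lay over 61.2% of coding genes of 100 kb or more, against 23.3% of those under 20 kb. The widest (44723574 to 44728594, 5021 bp) covered the most upstream 5′ end, from 4276 bp before it to 744 bp past it, and its midpoint lay 1766 bp upstream. This width was reached by 0.898% of all peaks. Among the 7584 coding genes whose 5′ ends had a peak, 0.883% had one as wide there. It did not reach the 5′ ends used by most of its annotated transcripts, which begin 294 bp (44723280) and 284 bp (44723290) past its edge. The first sequence above comes from this peak and holds 22 CpGs and E-box letters at 3 places.

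The other 4 *Pax5* peaks stood together, in 13.1 kb between 44680332 and 44693424. Their widths were 1280, 2469, 1266 and 2043 bp, and gaps of 0.943, 2.68 and 2.41 kb separated them. Their midpoints lay 43.3, 40.5, 36.0 and 31.9 kb into the gene. Of these, 3 midpoints lay in intron 5 of the 10-exon transcript Pax5-001. That of the peak nearest the start lay in exon 5. The run thus took in sequence of this exon and of the intron after it. The fifth intron of *Pax5* is known to hold an enhancer of the gene. The peaks also overlapped the noncoding gene *Gm12462*. No further peak was listed in the remainder of the gene or in the 200 kb past its end, and before the gene the nearest (44768616 to 44770177, 1562 bp) lay at the 5′ end of the neighbouring gene *Zcchc7*, with its midpoint 45.1 kb upstream of *Pax5*.

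*Ebf1* (ENSMUSG00000057098.7, chromosome 11, 44430819 to 44821593, plus strand) encodes the factor that opens chromatin at B cell genes and activates *Pax5*. It is the longest of the genes, at 391 kb, and had 3 peaks, all in introns and all narrow. The first (44557666 to 44558554, 889 bp) and second (44588947 to 44589402, 456 bp) lay in intron 6 of the 16-exon transcript Ebf1-001, with midpoints 127 and 158 kb past the start. The third (44706310 to 44707203, 894 bp) lay in intron 8, 276 kb past the start. Widths as large as these were found in 76.7, 97.8 and 76.4% of all peaks, so that these 3 were among the narrower ones. They covered 0.573% of the gene. As many peaks were found over 3.37% of all coding genes and over 4.29% of those with no wide interval, again with no matching for gene length. The start of *Ebf1* had no peak within 1 kb of any of its 5 annotated 5′ ends.

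The nearest peak to the *Ebf1* start ended 3.37 kb before it (44424482 to 44427451, 2970 bp, as wide as 7.36% of peaks). *Ebf1* is known to be transcribed from a distal and a proximal promoter, and no annotated 5′ end lay in this peak. Its sequence, shown above, was the only one of the 33 peaks over or within 200 kb of the factor genes to hold the EBF1 letters at its centre, and it also held a CAGCTG E-box and the Ikaros core. Those EBF1 letters thus occurred at the centre of 3.03% of the 33 peaks, beside 1.23% of all peaks. With 1 match, no link between the letters and the gene can be read from it.

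Upstream of *Ebf1* the peaks were dense. The 200 kb before the gene held 11 peaks and the 200 kb after it held 0. With the 3 over the gene this made 14, a number that 3.45% of coding genes reached. The stretch searched grows with the gene, so that more sequence was counted at *Ebf1*, of 391 kb, than at shorter genes. That share is not matched for length. Of the 11, 3 lay at the 5′ ends of other coding genes, 2 at *Ublcp1* and 1 at *Rnf145*, and the other 8 overlapped no annotated gene. A group of 3 peaks between 44389381 and 44395453, of 921, 1677 and 1035 bp, had midpoints 41.0, 39.0 and 35.9 kb before the start. Farther out, between the peaks at *Ublcp1* and at *Rnf145*, stood 4 peaks of 3855, 3620, 1090 and 3371 bp, with midpoints from 140 to 113 kb before the start. Of the 11 peaks, 4 were over 3 kb wide, against a median of 1365 bp over all peaks.

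*Spi1* (ENSMUSG00000002111.8, chromosome 2, 90922547 to 90955913, plus strand) encodes PU.1, an ETS family factor whose dose directs progenitors to the B cell or the myeloid lineage. It had 2 peaks, and each covered annotated 5′ ends, so that all 4 of its 5′ ends lay inside a peak. The first (90922152 to 90924269, 2118 bp) reached from 395 bp before the most upstream annotated start to 1722 bp past it. The 5′ ends it covered were those of Sfpi1-003 and Sfpi1-004. Those of Sfpi1-001 and Sfpi1-002 lay 13706 and 14390 bp past the most upstream start. The second (90936160 to 90937380, 1221 bp) lay 14.2 kb into the gene, over the 5′ ends of coding transcripts at 90936253, that of the 5-exon transcript Sfpi1-001, and at 90936937. Together they covered 8.82% of the gene, the highest share of the 4. Having 2 or more peaks over the gene was seen in 8.42% of all coding genes and in 10.7% of those with no wide interval.

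Around *Spi1*, the 27.7 kb before the first peak held no peak. The next peak upstream (90893821 to 90894426, 606 bp) lay at the 5′ end of *Psmc3*, which encodes a proteasome subunit. Of the 5 peaks in the flanks, those at *Ptpmt1*, *Psmc3*, *Pacsin3* and *Arfgap2* lay at 5′ ends of these genes, and the remaining peak overlapped *C1qtnf4*. The flanks thus differed from those of *Ebf1* in that every peak overlapped another coding gene. *Spi1* also had 16 other coding genes within 200 kb, against 2 around *Ebf1* and 2 around *Pax5*, and a median of 8 over all coding genes.

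*Pou2af1* (ENSMUSG00000032053.7, chromosome 9, 51021795 to 51048184, plus strand) encodes OCA-B, which joins octamer-binding factors at promoters of B cell genes and is needed for germinal centres. It had 1 peak (51019349 to 51022244, 2896 bp), which covered its single annotated 5′ end from 2446 bp before to 449 bp past it. A width as large was found in 8.13% of all peaks, and at 9.96% of the coding genes whose 5′ ends had a peak. The midpoint lay 999 bp upstream, so that most of the peak was outside the gene. All 5 peaks in the flanks were upstream, and the 200 kb past the gene held 0.

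Of the upstream *Pou2af1* peaks, 3 stood alone with midpoints 47.6, 30.9 and 18.9 kb before the start, and overlapped no annotated gene. Their widths were 1353, 2140 and 717 bp. The outermost of these 3 held octamer letters at its centre, the only one of the 33 peaks to do so (3.03%), against 1.83% of all peaks. Here too, 1 match shows no link between the letters and the gene. The other 2 were 112 and 110 kb away, at the 5′ end of *4833427G06Rik* and over *Mir34b*.

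**Figure D2:**
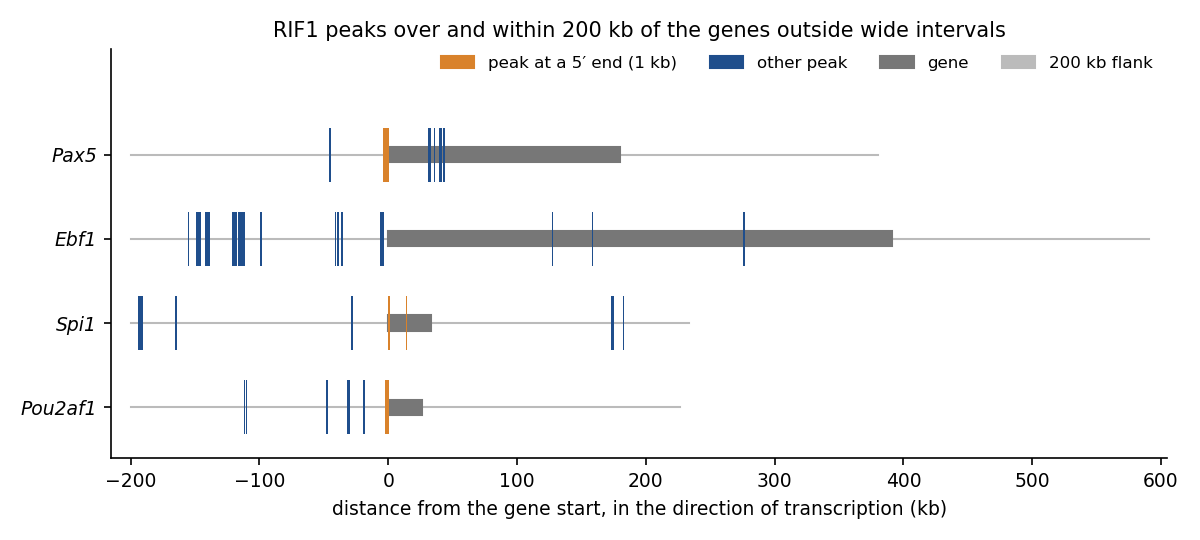
Position of peaks (bars) relative to the gene start, in kb along the direction of transcription, over each of the 4 genes outside wide intervals and 200 kb on each side; peaks at a 5′ end are in orange, and the narrowest bars are drawn slightly wider than to scale so that they can be seen. Peaks lay mainly before the gene at *Ebf1* and *Pou2af1*, in a run within the gene at *Pax5*, and at an annotated 5′ end of 3 of the 4.

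The peaks over the 4 genes were not unusual in width as a group. The 11 peaks ranged from 456 to 5021 bp with a median of 1280 bp, beside 1365 bp for all peaks (quartiles 916 and 1979 bp), and 5 of 11 were wider than that median. Of the 11, 4 lay at a 5′ end and 7 away from one. Midpoints lay in introns for 6, in exons for 2 and outside the gene or the coding transcript used for 3.

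**Figure D3:**
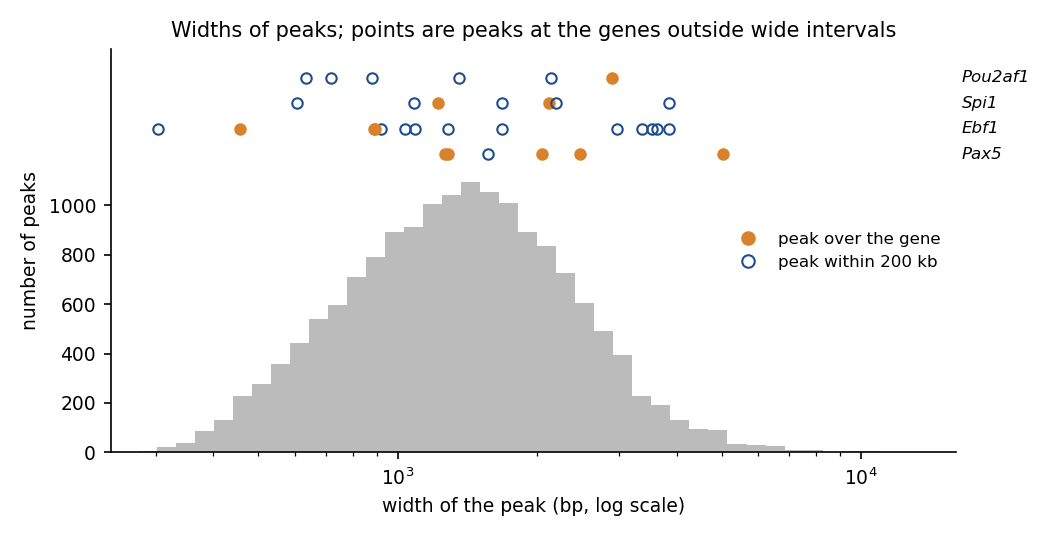
Histogram of the widths of all 16043 peaks (bp, log scale) with the number of peaks on the vertical axis, and above it the peaks over (filled) and within 200 kb (open) of the 4 genes. The peak at the *Pax5* start, at 5021 bp, is the rightmost point, and the 3 peaks in *Ebf1* introns lie at or under 894 bp.

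In base composition the 11 peaks had a GC content of 42.5 to 57.8% with a median of 50.8%, beside 50.3% for all peaks. Their ratio of observed to expected CpG, which is high in CpG islands and low in most other sequence, ranged from 0.11 to 0.61 with a median of 0.23, beside 0.39 (quartiles 0.23 and 0.64) for all peaks. The highest was that of the *Pax5* start peak, at 0.61. The first and second *Spi1* peaks, both at 5′ ends, were at 0.17 and 0.32, and the *Pou2af1* start peak at 0.30. In the 1 kb on each side of the most upstream gene start it was 0.62 at *Pax5*, 0.57 at *Ebf1*, 0.30 at *Pou2af1* and 0.18 at *Spi1*, against a median of 0.47 over coding genes. At *Spi1* this start lies 13706 bp before that of Sfpi1-001, so that the value does not describe the latter.

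**Figure D4:**
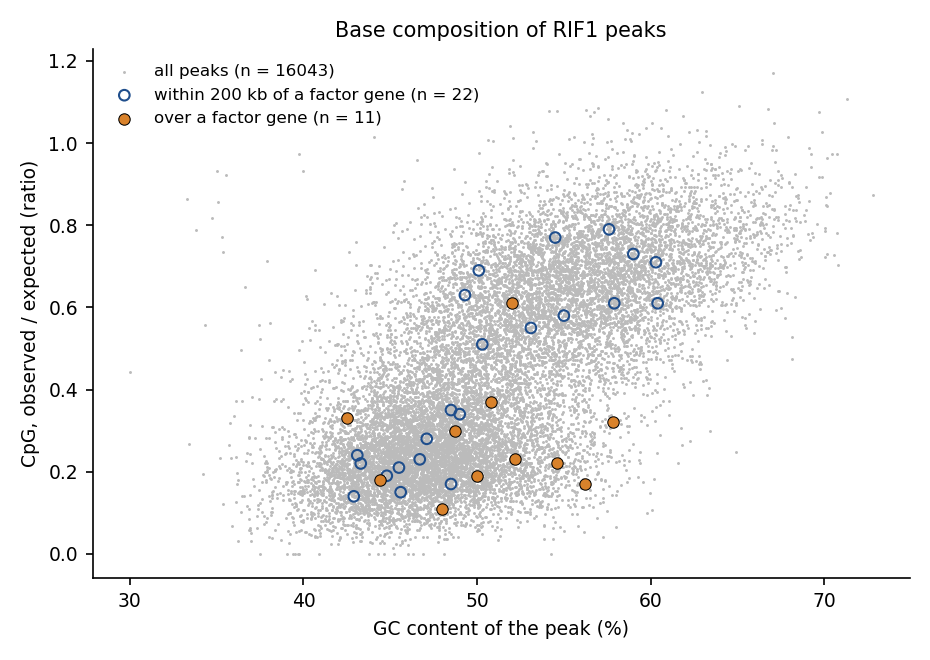
GC content (percent, horizontal axis) and observed over expected CpG (ratio, vertical axis) of every peak, with the 11 peaks over the factor genes filled and the 22 within 200 kb open. Filled points lie mostly in the lower cloud, with the *Pax5* start peak at 0.61 as the exception, while the open points spread over both.

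Of the letters searched, E-boxes were the ones found most often. In the central 300 bases, CACCTG or its reverse was present in 5 of 11 peaks (45.5%), against 23.0% of all peaks, and CAGCTG in 4 of 11 (36.4%), against 16.4%. In the 33 peaks over or within 200 kb of the genes, these shares were smaller, at 33.3 and 30.3%. The Ikaros core was present in 1 of 11 (9.09%) and in 5 of the 33 (15.2%), against 23.2%. The interferon response element was present in 1, in the second *Ebf1* intron peak, and the EBF1, PU.1 type, octamer, composite and forkhead letters in 0 of 11, where 1.23, 4.06, 1.83, 3.70 and 3.11% of all peaks held them. Of the 33 peaks, 6.06% held the PU.1 type letters and 0 the forkhead letters. The EBF1, octamer, composite and interferon response letters were each in 3.03% of them. With 11 peaks, 1 peak more or less moves a share by 9.09 percentage points. RIF1 is known to bind G-quadruplexes, folds of guanine-rich DNA. A pattern of 4 runs of at least 3 G with 1 to 7 bases between runs, on either strand, was found in 4 of 11 peaks (36.4%), both *Spi1* peaks, the third *Ebf1* intron peak and the *Pou2af1* start peak, against 38.6% of all peaks.

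The 6 genes under wide intervals each lay wholly inside one, and no wide interval held more than 1 of them. These intervals were 360, 878, 1040, 1508, 1800 and 2480 kb wide, with a median of 1274 kb beside 576 kb for all 289. These medians are not matched, since a wider interval is more likely to hold a named gene. Each of the 6 genes, with 200 kb on each side, held 0 peaks. From 73.8 to 100% of each such stretch lay in the wide interval, where no peak could be listed. The distances to the nearest peak given below likewise could not be shorter than that to the edge of the interval.

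*Tcf3* (ENSMUSG00000020167.8, chromosome 10, 79872259 to 79896392, minus strand) encodes the E2A proteins, which with EBF1 start the B cell programme. Its wide interval (78740001 to 81220000) was the widest of the 6 and the ninth widest of all, a width reached by 3.11% of wide intervals. It held 133 coding genes, or 53.6 per Mb, against a median of 16.0 per Mb over wide intervals. The gene lay near its middle, with its 5′ end 1156 kb from the nearer edge. The nearest peak to the gene was 1312 kb away.

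*Ikzf1* (ENSMUSG00000018654.10, chromosome 11, 11585006 to 11672929, plus strand) encodes Ikaros, a zinc finger factor needed for lymphoid cells. Its wide interval (11394001 to 11754000, 360 kb) was the narrowest of the 6, and 85.5% of wide intervals were as wide. The gene took up 24.4% of it, the largest share of the 6, and it held 5 coding genes. It began 191 kb before the gene and ended 81.1 kb past it, so that its edge was nearer to the end of the gene than to the start. The nearest peak to the gene lay 202 kb away, past its end. Another peak, before the gene, lay nearest to the edges of the interval, at 31.0 kb.

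*Ikzf3* (ENSMUSG00000018168.8, chromosome 11, 98326216 to 98407345, minus strand) encodes Aiolos, the Ikaros relative of mature lymphocytes. Its interval (98140001 to 99180000, 1040 kb) held 36 coding genes, or 34.6 per Mb, with *Grb7* and *Zpbp2* beside *Ikzf3*. Both Ikaros family genes here, on the same chromosome, were thus under wide intervals, with 13.9 coding genes per Mb in that of *Ikzf1*.

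*Spib* (ENSMUSG00000008193.6, chromosome 7, 51781365 to 51787441, minus strand) encodes Spi-B, an ETS factor close to PU.1 that acts in mature B cells. Its interval (51426001 to 53226000, 1800 kb) held 108 coding genes, or 60.0 per Mb, the highest density of the 6. Among them were *Irf3*, a relative of *Irf8*, and *Cd37*, which encodes a B cell surface protein. The gene, at 6.08 kb, took up 0.338% of the interval. The pair of ETS genes thus differed in the kind of interval. *Spib* had a wide interval, inside which no peak could be listed, and *Spi1* had peaks and no wide interval within 200 kb.

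*Foxo1* (ENSMUSG00000044167.5, chromosome 3, 52072259 to 52154031, plus strand) encodes a forkhead factor that drives B cell precursors and the recombination genes. It lay in the middle of its interval (51340001 to 52848000, 1508 kb), with 732 kb before it and 694 kb past it. That interval held 8 coding genes, or 5.31 per Mb, the lowest density of the 6, and *Foxo1* had only 1 other coding gene within 200 kb. Its start was the richest in CpG of the 10 genes, at an observed over expected ratio of 0.98, which 0.429% of coding gene starts reached. The wider intervals of *Tcf3* and *Spib* held 53.6 and 60.0 coding genes per Mb.

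*Irf8* (ENSMUSG00000041515.3, chromosome 8, 123260258 to 123280594, plus strand) encodes an interferon regulatory factor that pairs with PU.1 in B and myeloid cells. Its interval (122562001 to 123440000, 878 kb) held 11 coding genes, or 12.5 per Mb. The gene lay toward one side, 159 kb from the higher-coordinate edge, and no other coding gene lay between it and that edge. The nearest peak to the gene was 220 kb away, and 13 peaks lay within 500 kb of the edges of the interval.

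**Figure D5:**
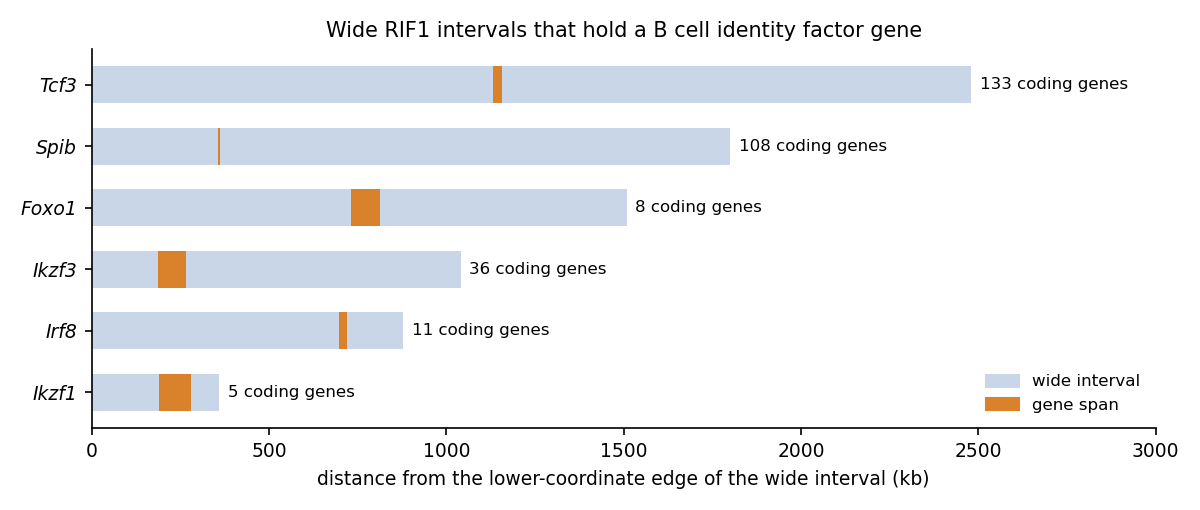
The 6 wide intervals (pale bars, kb from their lower-coordinate edge) with the span of the factor gene in each (orange) and the number of coding genes they hold. Widths run from 360 kb at *Ikzf1* to 2480 kb at *Tcf3*. The number of coding genes rises with width except at *Foxo1*, with 8 in 1508 kb.

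Wide intervals overlapped more of the short genes of the genome than of the long ones. Over coding genes under 20 kb, from 20 to 100 kb and of 100 kb or more, a wide interval was present at 27.6, 18.5 and 8.33%, a peak over the gene at 23.3, 49.2 and 61.2%, and a peak at a 5′ end at 22.6, 47.3 and 52.5%. Of the factor genes, 1 of 1, 5 of 7 and 0 of 2 in these classes had a wide interval. The 2 longest, *Ebf1* and *Pax5*, were those with the most peaks over them. In the middle class, *Spi1* and *Pou2af1* had peaks and the other 5 had wide intervals.

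To set the 10 genes beside related ones, 3 lists were counted in the same way. Of 28 paralogs of the factors, 5 (17.9%) had a wide interval, against 22.6% of all coding genes. A peak at a 5′ end was listed at 15 (53.6%), against 33.9% of all coding genes. The 5 under wide intervals were *Ikzf4*, *Irf3*, *Irf4*, *Irf7* and *Irf9*. By family, *Ikzf1* and *Ikzf3* were under wide intervals, where no peak could be listed, and *Ikzf2* and *Ikzf5* had a peak at a 5′ end. *Foxo1* was likewise under a wide interval, and *Foxo3* and *Foxo4* had a peak at a 5′ end. The E protein gene *Tcf4*, a relative of *Tcf3*, had 10 peaks over it and 3 at 5′ ends. Relatives that act mainly outside the B cell lineage were not free of peaks, and *Pax3*, *Pax6*, *Pax9*, *Ebf2* and *Ebf3* had a peak at a 5′ end. The other *Pax* and *Ebf* genes of this list had none there.

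Of 34 B cell genes that these factors control or work with, 16 (47.1%) had a wide interval and 12 (35.3%) a peak at a 5′ end. Under wide intervals were the surface and signalling genes *Cd22*, *Cd79a*, *Cd37*, *Syk* and *Ms4a1*, the class II transactivator *Ciita* and the regulators *Bach2*, *Id3* and *Lef1*. Peaks at 5′ ends were listed at *Cd79b*, *Blk*, *Blnk*, *Lyn*, *Cr2*, *Fcer2a*, *Vpreb1* and *Myb*, among others. The share with a peak at a 5′ end was near the 33.9% of all coding genes. Neither a wide interval nor a peak over the gene or at a 5′ end was present at 6 of these genes (17.6%), against 40.5% of all coding genes.

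Of 27 factors of other blood lineages, 11 (40.7%) had a wide interval and 8 (29.6%) a peak at a 5′ end, the latter against 33.9% of all coding genes. Under wide intervals were the T cell factors *Tcf7*, *Tbx21*, *Zbtb7b* and *Runx3*, and the erythroid factor *Klf1*. Peaks at 5′ ends were listed at *Gata3*, *Bcl11b*, *Cebpa* and *Tal1*, among others. This list, like that of the B cell genes, thus had a share of wide intervals above the 22.6% of all coding genes, and no difference between the lists was tested. Genes can share 1 wide interval, and the 16 B cell genes lay in 15 and the 11 other factors in 11.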

How the data were processed

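RIF1 ChIP-seq was done with an anti-HA antibody on chromatin sheared to 200 to 600 bp. As the study's methods and the submitters' processing notes state, the authors trimmed reads with Trim Galore 0.6.4, aligned them to mm9 with Bowtie 1.0.0 keeping unique alignments, called narrow and broad peaks per replicate with MACS2 2.2.6 and wide domains with EDD, merged them with bedtools 2.27.1 and kept those called in both Rif1FH replicates. Unique alignment removes repeated sequence, and a call in both replicates removes weak binding. The deposited list has 3 columns that hold positions and no other values, so depth per sample is unknown.

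Intervals were overlapped (at least 1 bp) with GENCODE M1 genes on NCBIM37, the assembly of mm9, with coordinates counted from 1. The overlap counts were tested on simulated data. RefSeq starts (GRCm38.p6) were placed on mm9 by exact match of their 300 bases, and all 11, of 8 of the genes (none for *Spi1* and *Ikzf3*), matched once. The genes and lists were chosen with earlier results of these data known. All 10 genes are named. From each list, genes with a peak at a 5′ end or a wide interval may be named, up to 20, and other genes only where an interval near a factor gene overlaps them. Of the listed genes, 1 matched no coding gene, and some are counted but not reported here by name. No test was run, and 4 samples in 2 groups entered no comparison. Alternatives were overlap by midpoint, wider intervals only, merging, other windows, flanks and width limits, and transcript sets. Python 3.11.15, numpy 2.4.6, pysam 0.24.0 and matplotlib 3.10.9 were used.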

Additional observations from a re-analysis of the deposited data

How the results depend on the processing

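Of 34 comparisons of 7 results with other settings, 26 planned and 8 added after the data were seen, 30 stayed within 1.5 times the reported count, or for GC content within the SD of 4.68 percentage points over the 11 peaks. The other 4 were counts of peaks. With only peaks at or above the median width, 5 peaks lay over the factor genes and 16 over or within 200 kb of them, in place of 11 and 33. With flanks of 100 and 50 kb there were 21 and 20. These follow from fewer peaks or less sequence being counted.

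A peak over the gene was left at 3 genes by peak midpoints, which drops *Pou2af1*, and at 3 with peaks at or above the median width, which drops *Ebf1*. The number of genes with a peak at a 5′ end was 2 by peak midpoints, 2 with RefSeq starts, a set that held none for *Spi1* and *Ikzf3*, and 4 with windows of 5 kb, which reach the peak upstream of *Ebf1*. Wide intervals lay over 5 genes when only those at or above the median width were kept, which drops *Ikzf1*, and over 6 under the other settings tried. Merging does not alter wide intervals and was not run for them. No paired analysis was possible because both Rif1FH replicates had been combined before deposit, and no replicate was left out for the same reason. A gene without a listed peak cannot be told apart from one bound too weakly to be called.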
